A study of Mus musculus with 12 samples.

Results

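The ADAM genes encode membrane proteins with a metalloprotease-like and a disintegrin domain. They were taken from the deposited expression table by symbol: Adam followed by a number and at most 1 letter, which leaves out the secreted Adamts genes. The rule gave 31 genes of 28643 gene symbols used. Round spermatids, the haploid germ cells that follow meiosis, were sorted from testes of male mice 8 weeks of age while cycloheximide held ribosomes on their mRNAs. Igf2bp3+/- mice, the controls, kept 1 intact copy of Igf2bp3, an RNA-binding protein gene, beside 1 copy with a Cas9-made frameshift, and Igf2bp3-/- mice carried the frameshift on both copies. The line was made in C57BL/6 zygotes, and the study's methods say that Igf2bp3-/- males with impaired fertility were selected. Both genotypes were measured as RNA-seq of total input and as RNC-seq of mRNAs that carried 4 or more ribosomes, with 3 libraries in each of the 4 groups. The methods describe cells from single mice, each extract split into input and polysomes, but the labels do not say whether equal replicate numbers share a mouse, so p-values measure the spread between these libraries.

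An ADAM protein is made with a signal peptide and a prodomain, followed by a metalloprotease domain, a disintegrin domain, a cysteine-rich region and usually a membrane anchor and a cytoplasmic tail. Members with an intact zinc site can cut growth factors, cytokines and adhesion proteins off the cell surface, whereas members without it act through binding. In the testis, many members are made by germ cells and reach the sperm surface, where the fertilin and cyritestin proteins form a group needed for sperm to pass from the uterus into the oviduct and to bind the egg's coat.

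To show how the members divide, 33 coding bases are printed for each of 12 members, from the stretch where ADAM proteases bind zinc. Capitals mark the codons for the 3 zinc-binding histidines, the catalytic glutamate and the conserved glycine of the motif, where the member has them. The motif was found in 19 of 31 members. Members without it were aligned to Adam9. The bases were read from GENCODE M21 transcripts of the GRCm38 assembly, 5′ to 3′ on the coding strand.
Adam17: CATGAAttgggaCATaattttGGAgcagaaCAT
Adam15: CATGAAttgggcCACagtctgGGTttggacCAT
Adam1a: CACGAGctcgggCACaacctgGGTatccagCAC
Adam1b: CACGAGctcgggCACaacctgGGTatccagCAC
Adam24: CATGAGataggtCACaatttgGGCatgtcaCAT
Adam26a: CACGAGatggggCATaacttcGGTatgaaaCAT
Adam26b: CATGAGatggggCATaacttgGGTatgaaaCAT
Adam29: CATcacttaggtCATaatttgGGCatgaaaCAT
Adam4: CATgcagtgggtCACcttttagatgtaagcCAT
Adam2: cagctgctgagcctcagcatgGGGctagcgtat
Adam3: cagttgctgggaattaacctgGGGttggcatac
Adam18: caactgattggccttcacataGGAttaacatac

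Of the 5 marked codons, Adam29 kept 4, Adam4 kept 3, and Adam2, Adam3 and Adam18 kept 1, the glycine. Adam5, Adam32, Adam23 and Adam6b also kept 1, Adam6a and Adam22 kept 2, and Adam11 gave no ungapped window. The Adam3 window lies at chr8:24707418-24707450 on the minus strand, within a coding exon, the Adam2 window at chr14:66053841-66053873 on the minus strand, and the Adam15 window at chr3:89344780-89344812 on the minus strand. Adam1a and Adam1b carried the same 33 bases, at chr5:121520089-121520121 and chr5:121501937-121501969 on the minus strand.

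Values are FPKM, fragments scaled by transcript length and by the mapped total of the library, as the authors deposited them, so levels below are per length. Of the 31 members, 27 to 31 were above 0 in a library. Their summed FPKM took 0.396% ± 0.00775 of all FPKM in Igf2bp3+/- RNA-seq and 0.409% ± 0.0162 in Igf2bp3-/- RNA-seq (SD, n = 3). In RNC-seq the share was 0.249% ± 0.0411 and 0.239% ± 0.0404 (SD, n = 3). Every RNC-seq library lay below every RNA-seq library, and the genotypes overlapped in both assays. The transcript with the highest mean FPKM, CT010467.1, took 5.68% to 19.4% of a library, and without it the 4 shares were 0.443%, 0.443%, 0.303% and 0.270%.

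Igf2bp3 itself was at 33.4 to 38.6 FPKM in Igf2bp3+/- RNA-seq and 31.4 to 32.5 in Igf2bp3-/- RNA-seq, and at 31.4 to 43.0 against 40.6 to 43.1 in RNC-seq. Its log2 difference between the genotypes in RNA-seq was -0.20 ± 0.09 (SE; limma adjusted p of 0.335). The RNA level of a frameshift allele does not by itself check the genotype. Relative depth, set to 1 in the deepest library, was 0.374 to 0.564 in the other 11. The 6 round spermatid markers were above 0 in all 12 libraries, with a summed FPKM of 701 to 814 in Igf2bp3+/- RNA-seq and 920 to 1075 in Igf2bp3-/- RNA-seq. Markers named for elongating spermatids and for other testis cells were also present. The elongating spermatid list includes Tnp1, Tnp2, Prm1 and Prm2, whose mRNAs the study measured by qPCR in its sorted round spermatids. Its sum is therefore not a measure of elongating cells alone. The summed FPKM of 6 elongating spermatid markers was 9198 to 11805 in Igf2bp3+/- RNA-seq against 10270 to 10445 in Igf2bp3-/-. In RNC-seq it was 12469 to 14967 against 11446 to 22229. The 5 spermatocyte markers summed to 70.6 to 91.1 against 83.2 to 108 in RNA-seq and 102 to 199 against 83.5 to 149 in RNC-seq. For both lists the genotypes overlapped in each assay, and 0 markers passed the limit. The summed FPKM of 7 Leydig markers was 15.4 to 22.6 against 48.6 to 55.0 in RNA-seq and 6.75 to 14.3 against 51.5 to 103 in RNC-seq, higher in Igf2bp3-/- in both, and 4 of the 7 passed the limit in RNA-seq and 1 in RNC-seq. The 7 macrophage markers went the same way, at 4.85 to 6.16 against 8.17 to 9.30 in RNA-seq and 3.34 to 5.00 against 8.24 to 11.4 in RNC-seq, with 1 and 0 past the limit. The 6 Sertoli markers summed to 4.36 to 5.32 against 8.30 to 8.81 in RNA-seq and 1.89 to 3.44 against 5.06 to 5.55 in RNC-seq, but 1 of the 5 tested, Clu, passed in RNA-seq and 2 had a negative difference, and 0 of the 4 tested passed in RNC-seq. Among all the marker lists, the only gene at 0 in every library of a group was Sall4, a spermatogonial marker, in Igf2bp3+/- RNC-seq. In bulk samples, fewer cells of a type and less RNA per cell cannot be told apart.

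The members fell into a group of 20 with a mean RNA-seq level of at least 5 FPKM and a group of 11 below it. The first ran from 6.09 FPKM for Adam26b to 456 for Adam3, with a median of 28.1. The second ran from 0.0180 FPKM for Adam23 to 2.31 for Adam15, with a median of 0.175.

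**Figure D1:**
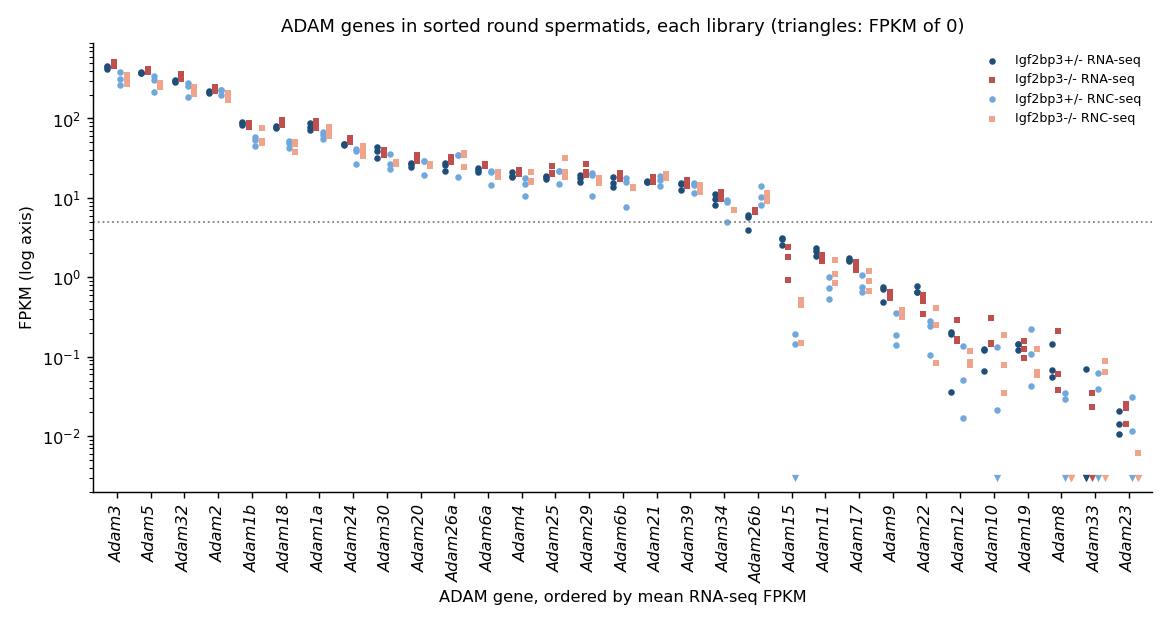
FPKM on a log axis for each of the 31 ADAM genes in each of the 12 libraries, coloured by genotype and assay, with triangles for libraries at 0 and a dotted line at 5 FPKM. The 20 genes above the line are germ cell members, from Adam26b at a mean RNA-seq level of 6.09 up to Adam3 at 456, and the 11 below it are the broadly expressed and neural members.

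Adam3, which encodes cyritestin, a sperm protein needed for passage into the oviduct, had the highest level of the family. Its FPKM was 415, 443 and 457 in the Igf2bp3+/- RNA-seq libraries and 453, 456 and 514 in the Igf2bp3-/- RNA-seq libraries. Its RNC-seq FPKM was 315, 262 and 384 in Igf2bp3+/- and 310, 350 and 272 in Igf2bp3-/-. Adam3 ranked 98 among all 28643 genes in Igf2bp3+/- RNA-seq. The RNC-seq values of both genotypes lay below all RNA-seq values, and the genotypes overlapped within each assay. Over 6.76% of its exonic bases Adam3 overlaps a gene on the opposite strand.

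Adam5, a sperm surface relative of Adam3, was at 370, 384 and 379 FPKM in Igf2bp3+/- RNA-seq and at 394, 390 and 420 in Igf2bp3-/- RNA-seq. Its RNC-seq values were 303, 216 and 340 against 267, 276 and 246. The RNA-seq libraries of the genotypes did not overlap, and the RNC-seq libraries did. Adam32, another sperm member, was at 295, 302 and 291 FPKM against 318, 324 and 367 in RNA-seq, and at 259, 187 and 280 against 212, 251 and 206 in RNC-seq. Here too the Igf2bp3-/- RNA-seq libraries were all the higher ones.

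Adam2 encodes fertilin beta, the partner of both ADAM1 proteins. Its RNA-seq level was 219, 212 and 218 FPKM in Igf2bp3+/- and 223, 235 and 248 in Igf2bp3-/-. Its RNC-seq level was 231, 196 and 231 against 172, 211 and 186. Of the 5 members with several coding exons at 82.7 FPKM or more, Adam2 was the member whose Igf2bp3+/- RNC-seq libraries overlapped its RNA-seq libraries.

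Adam1a and Adam1b encode the 2 forms of fertilin alpha. ADAM1a pairs with fertilin beta inside the cell, and ADAM1b pairs with it on the sperm surface. Adam1a was at 72.5, 77.0 and 87.5 FPKM in Igf2bp3+/- RNA-seq and 75.1, 84.2 and 92.7 in Igf2bp3-/- RNA-seq, and at 54.5, 61.4 and 67.6 against 69.9, 77.6 and 59.3 in RNC-seq. Adam1b was at 87.3, 81.9 and 90.3 against 78.8, 83.1 and 87.3 in RNA-seq and at 45.2, 53.9 and 59.1 against 52.7, 76.4 and 49.0 in RNC-seq. Adam1b lay below its RNA-seq values in all RNC-seq libraries of both genotypes. The transcripts of the pair are 99.7% identical over 34.5% of Adam1a, and 63.7% of Adam1a's exonic bases overlap another gene on the same strand, so the split between them is uncertain. Their sum was 165 ± 10.6 FPKM in Igf2bp3+/- RNA-seq and 114 ± 13.5 in Igf2bp3+/- RNC-seq (SD, n = 3), and the means in Igf2bp3-/- were 167 and 128 FPKM.

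Adam18, a member made in spermatids, was at 79.5, 78.6 and 75.0 FPKM in Igf2bp3+/- RNA-seq and 84.5, 83.8 and 94.6 in Igf2bp3-/- RNA-seq. Its RNC-seq values were 49.4, 42.4 and 52.7 against 47.7, 50.8 and 38.0. The RNC-seq libraries were the lower ones in both genotypes with a wide gap, and the Igf2bp3-/- libraries were the higher ones in RNA-seq.

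The order of levels in Igf2bp3+/- RNA-seq was Adam3, Adam5, Adam32 and Adam2, each above the next in every library with no overlap. Adam1b, Adam1a and Adam18 followed. The range of Adam1a overlapped those of both others, while Adam1b at 81.9 to 90.3 FPKM lay above Adam18 at 75.0 to 79.5. Adam24, a testis protease gene, was next at a mean of 47.5 FPKM, and Adam30 at 38.2, each clear of its neighbours. From Adam20 at 26.2 FPKM down to Adam39 at 14.4, neighbours overlapped except for Adam6a and Adam4, and Adam34 at 9.67 and Adam26b at 5.27 stood apart.

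Near-identical copies are found in that range. Adam26a and Adam26b transcripts are 96.2% identical over 91.1% of Adam26a, and Adam25 and Adam39 transcripts 95.6% identical over almost their whole length, so their reads could be split between copies. Adam26b, a testis protease gene, was at 6.07, 5.78 and 3.95 FPKM in Igf2bp3+/- RNA-seq and 7.06, 6.63 and 7.05 in Igf2bp3-/- RNA-seq. On polysomes it reached 14.0, 8.26 and 10.2 FPKM in Igf2bp3+/- and 9.05, 10.1 and 11.4 in Igf2bp3-/-. It was the member whose RNC-seq libraries were all higher than its RNA-seq libraries, in both genotypes. Adam26a was at 25.8, 27.7 and 22.1 FPKM against 28.2, 30.1 and 32.5 in RNA-seq and at 35.0, 18.4 and 34.3 against 24.5, 36.4 and 34.5 in RNC-seq, where the assays overlapped. The sum of both was 30.4 ± 3.92 FPKM in RNA-seq and 40.1 ± 11.9 in RNC-seq of Igf2bp3+/-, and 37.2 ± 2.18 and 42.0 ± 7.30 in Igf2bp3-/- (SD, n = 3). Adam25 and Adam39 summed to 32.6 ± 1.84 and 33.6 ± 6.16 FPKM in Igf2bp3+/- (SD, n = 3), and to means of 37.2 and 37.3 in Igf2bp3-/-.

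The broadly expressed proteases were low. Adam10, the sheddase of Notch receptors, was at 0.0656, 0.121 and 0.126 FPKM in Igf2bp3+/- RNA-seq and 0.149, 0.145 and 0.306 in Igf2bp3-/- RNA-seq. Its RNC-seq values were 0.133, 0.0211 and 0 against 0.0345, 0.191 and 0.0780. By the approximate value of 1 fragment, these amount to 6.39 to 33.3 fragments in RNA-seq and 0 to 22.4 in RNC-seq. Adam17, the enzyme that releases tumour necrosis factor, was at 1.73, 1.66 and 1.61 FPKM against 1.55, 1.23 and 1.41 in RNA-seq, all lower in Igf2bp3-/-, and at 0.652, 0.749 and 1.06 against 0.901, 1.19 and 0.673 in RNC-seq, where the genotypes overlapped. Adam9, a widely expressed sheddase, was at 0.704, 0.749 and 0.484 FPKM against 0.547, 0.658 and 0.578 in RNA-seq and at 0.356, 0.140 and 0.188 against 0.383, 0.375 and 0.314 in RNC-seq.

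Adam15, an adhesion protein with a protease site, was the highest of the low group. Its FPKM was 3.11, 2.57 and 3.01 in Igf2bp3+/- RNA-seq and 2.42, 1.80 and 0.932 in Igf2bp3-/- RNA-seq. Its polysome level was 0, 0.193 and 0.146 FPKM in Igf2bp3+/- and 0.448, 0.514 and 0.149 in Igf2bp3-/-. The Igf2bp3-/- libraries were all the lower ones in RNA-seq, while the genotypes overlapped in RNC-seq. The RNC-seq values stand for approximately 0 to 39.1 fragments. Of its exonic bases 20.6% overlap 4731419I09Rik on the opposite strand. The sources do not say if strand was taken into account when reads were assigned.

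The neural members Adam11 and Adam22, which bind LGI proteins at synapses and have no zinc site, were also detected. Adam11 was at 1.88, 2.17 and 2.32 FPKM against 1.78, 1.92 and 1.61 in RNA-seq and at 0.535, 0.995 and 0.731 against 1.11, 1.65 and 0.838 in RNC-seq. Adam22 was at 0.785, 0.655 and 0.653 FPKM against 0.508, 0.606 and 0.347 in RNA-seq and at 0.104, 0.244 and 0.281 against 0.254, 0.407 and 0.0834 in RNC-seq. The third neural member, Adam23, had a mean RNA-seq level of 0.0180 FPKM. Adam12 (0.175), Adam19 (0.132), Adam8 (0.0962) and Adam33 (0.0214) were also below 0.2 FPKM on average in RNA-seq. Adam8, known from leukocytes, was at 0 in 4 of the 6 RNC-seq libraries.

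Gene structure divided the family only in part along the same line. All 15 members with a single coding exon were in the group of at least 5 FPKM, with a median RNA-seq level of 20.2 FPKM and a range of 6.09 to 84.8. The 16 members with several coding exons ran from 0.0180 to 456 FPKM, and 5 of them (Adam2, Adam3, Adam5, Adam18 and Adam32) were in the higher group, at 82.7 FPKM or more. None of these 5 carried the zinc motif. In the higher group 11 members carried the motif and 9 did not, with a median RNA-seq level of 27.7 against 82.7 FPKM. Of the low group, 8 carried it and 3, the neural ones, did not.

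**Figure D2:**
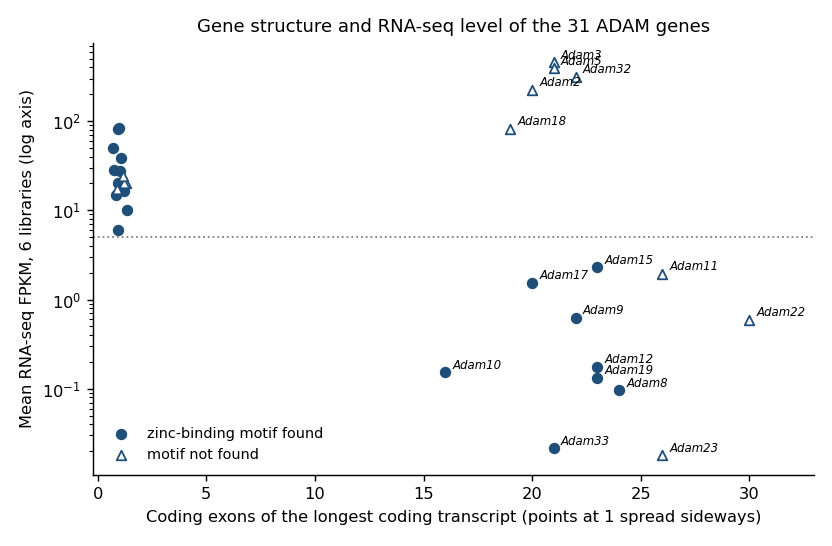
Mean RNA-seq FPKM over 6 libraries on a log axis against the number of coding exons of the longest coding transcript, with filled circles for members where the zinc-binding motif was found and open triangles where it was not. The 15 genes with 1 coding exon lie above the dotted line at 5 FPKM, and the 16 genes with several coding exons split into 5 high members without the motif and 11 low ones.

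Part of the family lay in 3 clusters on chromosome 8. Adam18, Adam3, Adam5, Adam32 and Adam9 lie in this order on the minus strand of the chromosome, from 24602246 to 25016927. The first 4 had mean RNA-seq levels of 82.7 to 456 FPKM and Adam9, the last, 0.620. Adam24, Adam25, Adam20 and Adam39 lie on the plus strand, from 40675077 to 40827037, at 14.8 to 49.9 FPKM, and Adam26b, Adam26a and Adam34 on the minus strand, from 43519762 to 43710049, at 6.09 to 27.7.

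Input RNA was compared first, to see whether ADAM transcripts differ in amount with Igf2bp3 loss. No ADAM gene differed past the limit. Of 31 members 28 had a mean above 0.1 FPKM and were tested, leaving out Adam8, Adam23 and Adam33, and 0 passed a limma Benjamini-Hochberg adjusted p of 0.05, where 0.256% of all 20352 genes tested did. At an unadjusted p under 0.05, 6 were higher and 1 lower in Igf2bp3-/-, where 10.4% and 5.32% of all genes tested were. The median log2 difference of the members tested was 0.12, beside 0.05 for all genes tested. Of the 20 members in the higher group 19 had a positive difference, with a median of 0.15, a share not counted over all genes. With quantile normalization the median of the members tested was 0.0083 and that of all genes 0.0019.

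Adam15 had the smallest p in RNA-seq, with a log2 difference of -0.81 ± 0.30 (SE), a 95% interval of -1.49 to -0.13 and a limma adjusted p of 0.260. A limit of 1.5-fold and an unadjusted p of 0.05, chosen as an alternative after seeing the data, would call Adam15 in RNA-seq and also in RNC-seq, and no other member in either. Adam26b followed at 0.41 ± 0.17 (limma adjusted p of 0.299) and Adam26a at 0.27 ± 0.11 (limma adjusted p of 0.301). The difference of Adam18 was 0.17 ± 0.08 and that of Adam32 0.18 ± 0.08, with intervals of -0.02 to 0.37 and -0.01 to 0.37. For Adam2 and Adam3 it was 0.12 ± 0.08 and 0.11 ± 0.09, with intervals of -0.06 to 0.30 and -0.09 to 0.31, and with quantile normalization it turned to -0.06 and -0.05. Adam1b was at -0.06 ± 0.08, Adam17 at -0.24 ± 0.16, Adam22 at -0.46 ± 0.24 and Adam10 at 0.53 ± 0.35.

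In RNA-seq every Igf2bp3-/- library lay above every Igf2bp3+/- library for 11 members and below for 3, where 14.1% and 8.68% of all genes tested did so. The 11 were Adam2, Adam5, Adam10, Adam18, Adam20, Adam24, Adam25, Adam26a, Adam26b, Adam32 and Adam6a, and the 3 were Adam15, Adam17 and Adam22. Igf2bp3-/- RNA-seq replicate 3 held the highest of the 3 values for 19 of the 20 members in the higher group. The 6 round spermatid markers moved with these members: each had a positive difference, with a median of 0.30, and 4 did not overlap. Of the 6 elongating spermatid markers 2 had a positive difference and 4 a negative one, with a median of -0.03. The part of either marker list in the members' differences was not tested.

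**Figure D3:**
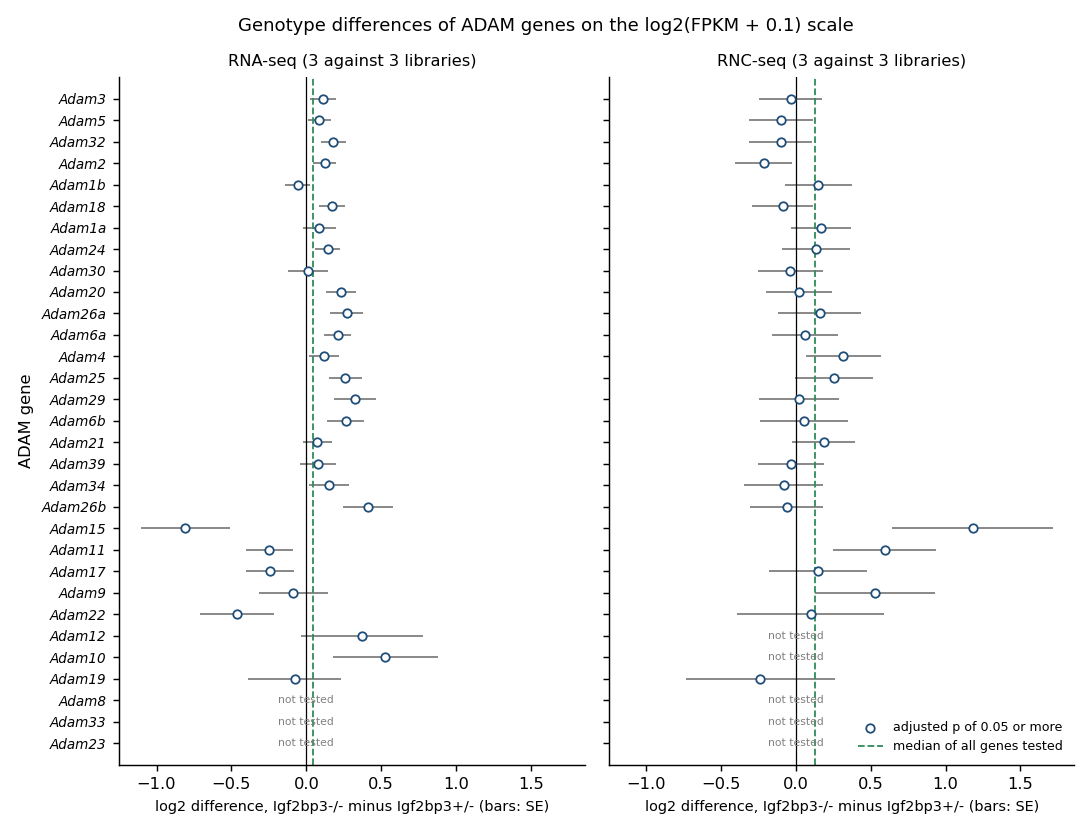
Log2 difference of Igf2bp3-/- minus Igf2bp3+/- on the log2(FPKM + 0.1) scale for each ADAM gene, in RNA-seq on the left and RNC-seq on the right, with bars for the SE and a dashed line at the median of all genes tested. No gene passed the limit in either assay. Adam15 lies at -0.81 in RNA-seq and 1.18 in RNC-seq.

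The polysome fraction was then compared between the genotypes. No ADAM gene passed the limit there either. Of 26 members tested (without Adam8, Adam10, Adam12, Adam23 and Adam33), 0 passed, where 0.115% of all 19051 genes tested did, and by an unadjusted p under 0.05 there was 1 member higher and 0 lower, where 5.36% and 1.12% of all genes were. Their median log2 difference was 0.06 beside 0.13 for all genes, and with each library centred on its median these were -0.06 and 0.01. The median of the members was -0.15 without Igf2bp3+/- RNC-seq replicate 2, 0.20 without Igf2bp3+/- RNC-seq replicate 3, 0.11 without Igf2bp3+/- RNC-seq replicate 1 and 0.01 without Igf2bp3-/- RNC-seq replicate 2. Adam15 was at 1.18 ± 0.54 (SE), with an interval of 0.00 to 2.36 and a limma adjusted p of 0.767. Adam11 was at 0.59 ± 0.34, Adam9 at 0.53 ± 0.40 and Adam2 at -0.21 ± 0.19, all with adjusted p above 0.8 in limma. The libraries of the genotypes overlapped for all 31 members, so that 0 were apart in either direction, where 9.44% of all genes were higher and 1.85% lower without overlap. Igf2bp3+/- RNC-seq replicate 2 held the lowest of the 3 values for 18 of the 20 members in the higher group.

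RNC-seq against RNA-seq of the same genotype asks how the polysome level of a transcript compares with its input level, here called polysome loading. Both are FPKM normalized within a library, so a difference is relative to the other transcripts. In Igf2bp3+/-, 27 of 31 members were tested, leaving out Adam8, Adam10, Adam23 and Adam33. Of these 9 were lower and 1 higher in RNC-seq, 33.3% and 3.70% of those tested, where 26.3% of all 19798 genes tested were lower and 17.3% higher. At an unadjusted p under 0.05, 12 were lower and 1 higher, where 30.9% and 21.1% of all genes were. The median log2 difference was -0.37 for the members tested and -0.14 for all genes, and without Igf2bp3+/- RNC-seq replicate 2 the first was -0.24. When every library was centred, the median of all genes became 0.04 and that of the members -0.19, which left 7 members lower and 1 higher. With this centring 8957 of all 19798 genes passed.

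Among the sperm members, Adam18 fell by 0.69 ± 0.12 (SE) on the log2 scale, Adam1b by 0.72 ± 0.13 and Adam3 by 0.47 ± 0.15, with limma adjusted p-values of 0.00236, 0.00279 and 0.0333. Adam1a fell by 0.37 ± 0.13, with a limma adjusted p of 0.0479. The differences of Adam5 and Adam32 were -0.42 ± 0.17 and -0.31 ± 0.16 and did not pass. Adam2 was at 0.02 ± 0.11, with an interval of -0.24 to 0.27, and at -0.31 with quantile normalization, where it passed. With each library centred on its median Adam3 and Adam1a no longer passed, and Adam18 and Adam1b did. Leaving out single libraries took the limma adjusted p of Adam3 to between 0.0125 and 0.0939 and that of Adam1a to between 0.0437 and 0.150, and both passed in 1 of 6 such fits, without Igf2bp3+/- RNC-seq replicate 3.

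The largest falls were in low members. Adam15 fell by 3.95 ± 0.40 (SE), with an interval of -4.86 to -3.04 and a limma adjusted p of 2.08e-04. Its ratio of mean RNC-seq to mean RNA-seq FPKM was 0.0390. Adam11 and Adam22, the neural members, both fell by 1.41, with SE of 0.25 and 0.32, and the sheddases Adam9 and Adam17 fell by 1.22 ± 0.33 and 0.97 ± 0.23. These low RNC-seq values rest on few fragments in Igf2bp3+/-. They stand for approximately 0 to 14.3 fragments for Adam15, 14.1 to 26.2 for Adam9 and 17.6 to 56.4 for Adam22. For Adam17 and Adam11 they stand for 53.0 to 88.4 and 49.7 to 127. Adam9 did not pass without Igf2bp3+/- RNA-seq replicate 1 or 2 or RNC-seq replicate 3, with limma adjusted p-values of up to 0.0689. Adam26b was the member that rose, by 1.02 ± 0.24, with a limma adjusted p of 0.00916 and a ratio of 2.06. The ratio of Adam26a was 1.16, and the difference between the copies was not tested.

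**Figure D4:**
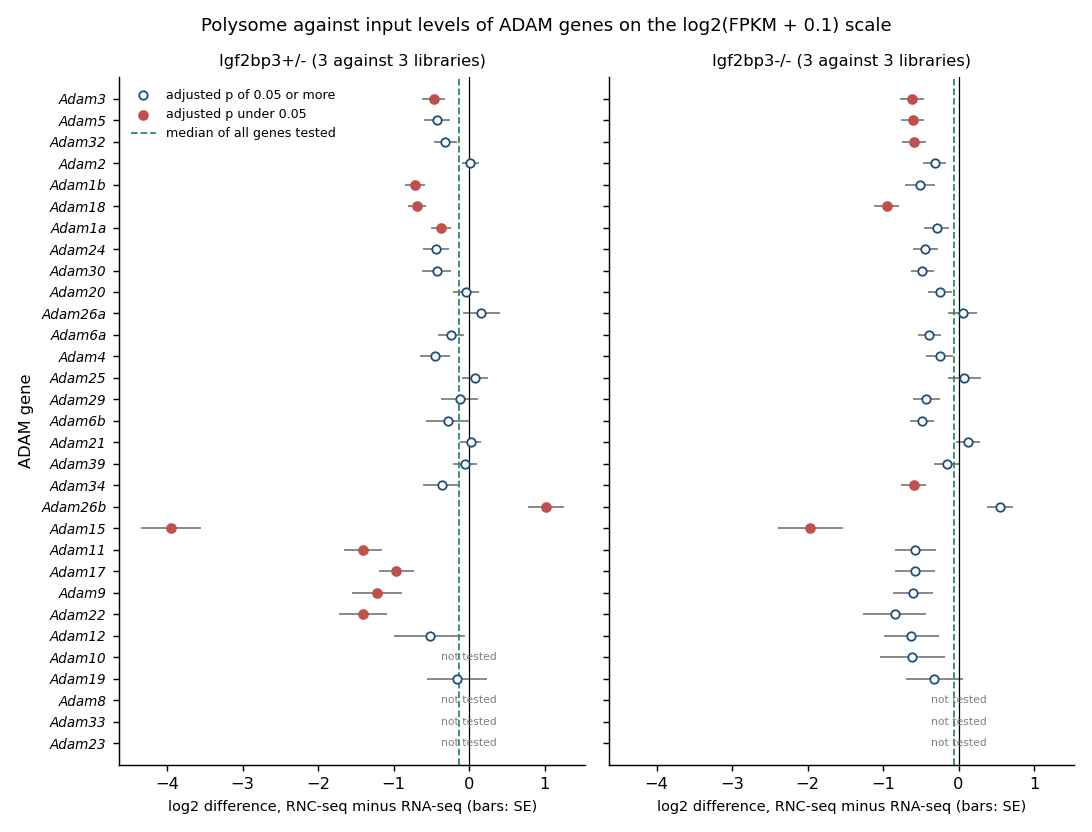
Log2 difference of RNC-seq minus RNA-seq on the log2(FPKM + 0.1) scale for each ADAM gene, in Igf2bp3+/- on the left and Igf2bp3-/- on the right, with bars for the SE, filled points for an adjusted p under 0.05 and a dashed line at the median of all genes tested. In Igf2bp3+/- 9 genes lie lower and Adam26b higher past the limit, and in Igf2bp3-/- 6 genes lie lower past it.

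In Igf2bp3-/-, 28 members were tested, without Adam8, Adam23 and Adam33. Of these 6 were lower and 0 higher in RNC-seq, 21.4% and 0% of those tested, where 11% of all 19858 genes tested were lower and 9.48% higher. At an unadjusted p under 0.05, 13 were lower and 1 higher, where 19.3% and 16.6% of all genes were. The median was -0.48 for the members and -0.06 for all genes. Adam15 fell by 1.96 ± 0.43 (SE) and Adam18 fell by 0.95 ± 0.17. Adam5 and Adam3 fell by 0.61, with SE of 0.15 and 0.16, Adam32 fell by 0.60 ± 0.16 and Adam34 fell by 0.59 ± 0.17. The 6 had limma adjusted p-values from 0.00684 for Adam18 to 0.0338 for Adam34. Adam34 is a testis member with a single coding exon.

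Adam1b was at -0.51 ± 0.19, Adam1a at -0.29 ± 0.17 and Adam2 at -0.32 ± 0.15 in Igf2bp3-/-, and none of these passed. Of the low members, Adam17 was at -0.58 ± 0.26, Adam9 at -0.60 ± 0.27, Adam11 at -0.57 ± 0.27 and Adam22 at -0.85 ± 0.41, with limma adjusted p-values of 0.136 to 0.174. Adam26b was at 0.55 ± 0.17, with a limma adjusted p of 0.0501 and a ratio of 1.47. It passed as higher in 6 alternatives and did not pass in 9. The 6 were a pseudocount of 1, no low-value filter, a filter at 1 FPKM, centring, quantile normalization and leaving out RNC-seq replicate 2. Adam3, Adam15 and Adam18 passed in both genotypes, in the same direction. With the replicate number as a block, 2 members passed in Igf2bp3-/-, Adam15 and Adam18, so Adam3 no longer did, nor did Adam5, Adam32 and Adam34. In that fit 4277 of all 19858 genes passed. Igf2bp3-/- RNC-seq replicate 2 held the highest of the 3 values for 15 of the 20 members in the higher group. Without it 14 members were lower and 1 higher, while without Igf2bp3-/- RNA-seq replicate 1 or 2 only Adam18 passed. Over all genes 6523 of 19942 passed without RNC-seq replicate 2. Without RNA-seq replicate 1 or 2 these were 1134 of 19730 and 1279 of 19801. Adam3, Adam32 and Adam34 passed in 1 of the 6 fits with a library left out, the one without RNC-seq replicate 2, with limma adjusted p-values of up to 0.111, 0.115 and 0.128 in the others.

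By structure, the 5 members of the higher group with several coding exons had median differences of -0.42 in Igf2bp3+/- and -0.61 in Igf2bp3-/-, with 2 and 4 of the 5 lower past the limit (40% and 80%). The 15 members with a single coding exon had medians of -0.24 and -0.29, with 2 lower (13.3%) and 1 higher (6.67%) in Igf2bp3+/- and 1 lower (6.67%) in Igf2bp3-/-. Of all genes tested, 26.3% were lower and 17.3% higher in Igf2bp3+/- and 11% lower in Igf2bp3-/-. The groups hold few genes, and the contrast between them was not tested. Adam24 and Adam30 were among the single-exon members that did not pass in either genotype.

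**Figure D5:**
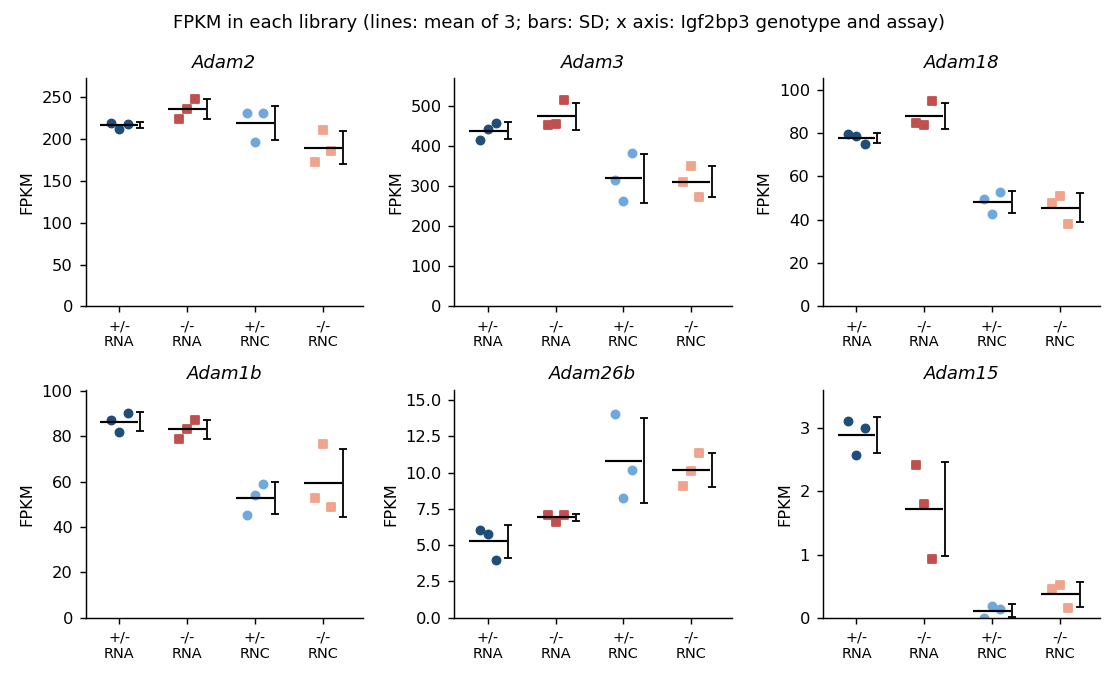
FPKM of 6 ADAM genes in each of the 12 libraries by genotype and assay, on axes that start at 0, with horizontal lines at the mean of 3 libraries and bars for the SD. Adam18 and Adam1b lie lower in RNC-seq than in RNA-seq, Adam26b lies higher, Adam2 overlaps in Igf2bp3+/-, and Adam15 is between 0 and 0.514 in RNC-seq.

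Whether loading differed between the genotypes, the change in translational efficiency (TE), was tested over all 12 libraries as a genotype by assay term. Of 26 members tested 0 passed, where 0.00543% of all 18414 genes tested did, and by an unadjusted p under 0.05 there were 2 members higher and 0 lower, where 5.54% and 1.58% of all genes were. Adam15 had the smallest p, with a difference of 1.99 ± 0.63 (SE), an interval of 0.63 to 3.35 and a limma adjusted p of 0.686. Its ratio was 0.0390 in Igf2bp3+/- and 0.215 in Igf2bp3-/-, with 1 of the 3 Igf2bp3+/- RNC-seq libraries at 0. Adam11 was at 0.84 ± 0.37, with ratios of 0.355 and 0.676. Adam2 was at -0.33 ± 0.18, with ratios of 1.01 and 0.804, and Adam26b at -0.47 ± 0.30. The interval of Adam2 ran from -0.72 to 0.05.

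The median TE difference of the members was -0.11, beside 0.06 for all genes tested. In the higher group 16 of 20 were negative, a share not counted over all genes. With quantile normalization the medians of the members and of all genes were -0.12 and -0.02. The median of the members was -0.23 without Igf2bp3+/- RNC-seq replicate 2 and -0.19 without Igf2bp3-/- RNC-seq replicate 2. It was between -0.07 and 0.02 in fits without replicate 3 of any group or without RNC-seq replicate 1 of either genotype, and was above 0 without Igf2bp3+/- RNC-seq replicate 3. The 5 comparisons share libraries, and their values for a gene are not independent of each other. In RNA-seq 8 members of the low group were tested, and 6 had a negative and 2 a positive difference, shares not counted over all genes. Adam15, Adam17 and Adam22 were lower in every Igf2bp3-/- library, and Adam10 was higher in every one. The other positive difference was that of Adam12, at 0.37 ± 0.41 (SE). The summed Leydig, macrophage and Sertoli markers were higher in every Igf2bp3-/- library. The summed peritubular markers were at 1.55 to 1.73 FPKM in Igf2bp3+/- against 1.05 to 1.60 in Igf2bp3-/-, and the spermatogonial ones at 3.24 to 4.09 against 3.11 to 3.63, both with overlap and with the lower mean in Igf2bp3-/-. What share of the low members' RNA came from other cells was not tested.

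Proteins that help ADAM3 mature in the endoplasmic reticulum and on the way to the sperm surface were all measured: 14 genes, among them the chaperones Clgn, Calr3 and Pdilt and the membrane proteins Cmtm2a and Cmtm2b. In the genotype and TE comparisons 0 of the 14 passed, with log2 differences of -0.05 to 0.48 in RNA-seq and -0.16 to 0.70 in RNC-seq. In loading, 4 were higher and 3 lower in Igf2bp3+/-, which is 28.6% and 21.4% where 17.3% and 26.3% of all genes were, and 1 was higher and 2 lower in Igf2bp3-/-, which is 7.14% and 14.3% beside 9.48% and 11%. The 3 with the highest RNA-seq level were Cmtm2a, Cmtm2b and Clgn. Cmtm2a was at 378 to 446 FPKM in Igf2bp3+/- RNA-seq and 398 to 561 in RNC-seq. Cmtm2b rose in loading by 0.66 ± 0.12 in Igf2bp3+/- and was at 0.39 ± 0.17 in Igf2bp3-/-, where it did not pass. Clgn, which encodes calmegin, a testis chaperone that ADAM2 and ADAM3 need, fell by 0.86 ± 0.12 in Igf2bp3+/- and by 0.76 ± 0.17 in Igf2bp3-/-, from 343 to 362 FPKM in Igf2bp3+/- RNA-seq to 178 to 222 in RNC-seq. In Igf2bp3-/- Clgn did not pass without any 1 of the 3 RNA-seq libraries, with limma adjusted p-values of up to 0.0721.

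The regulators of ADAM10 and ADAM17, a list of 13 with rhomboid-like proteins, tetraspanins, proprotein convertases and inhibitors, were mostly low, and 5 or 6 of them were tested in a comparison. In the genotype and TE comparisons 0 passed. In loading 1 was higher and 3 were lower of 5 tested in Igf2bp3+/- (20% and 60%), and 0 were higher and 1 lower of 6 in Igf2bp3-/- (16.7% lower), beside the same shares of all genes. Frmd8, which binds the rhomboid-like partners of ADAM17, was the highest at 26.6 to 30.9 FPKM in Igf2bp3+/- RNA-seq, far above Adam17 itself, and fell in loading by 0.70 ± 0.14. Tspan5, a tetraspanin partner of ADAM10, was at 11.4 to 13.1 FPKM and rose by 0.54 ± 0.15. It passed in 2 of the 6 fits with a library left out, those without RNA-seq or RNC-seq replicate 2, with limma adjusted p-values of 0.00495 to 0.0753. Tspan33, from the same tetraspanin group, was at 1.98 to 2.30 FPKM and fell by 1.07 ± 0.21. In Igf2bp3-/- these 3 were at -0.44 ± 0.23, 0.32 ± 0.16 and -0.41 ± 0.29 and did not pass.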

How the data were processed

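RNA-seq and RNC-seq of 12 poly(A)-selected libraries were analysed from 1 table of FPKM that the authors deposited. By the study's methods and the submitters' notes, reads were trimmed (Trim Galore 0.6.6), aligned to GRCm38 (HISAT2) and quantified with StringTie 2.1.7. The labels name a directional library kit and an Illumina instrument, and the methods a full-length method on another instrument. Strand use is not stated. Columns named WT are Igf2bp3+/- by the labels. No batch is given, and no read counts were used here: depth is unknown except for a relative depth, estimated in each library from genes with 1 transcript as the commonest of their low FPKM times length, taken as about 1 fragment.

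Of 28668 symbols, 25 turned into dates were left out, with 0.0995% of the FPKM. Positions and transcripts came from GENCODE M21, which held 27839 of the symbols and all 31 members. Log2(FPKM + 0.1) was tested with limma 3.58.1 in R 4.3.3 with an intensity trend, two-sided, among genes with a mean above 0.1 FPKM, for TE in both assays. P-values were adjusted over all genes tested, with a limit of 0.05. A fold on this scale understates the change of low genes. Near-identical copies (at least 95% identity over 50% of the transcript) were sought with BLAST 2.17.0. The code was tested on simulated data.

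Members, lists and tests were chosen with earlier results of these data known. Values in every library are given for Adam1a, Adam1b, Adam2, Adam3, Adam10 and Adam17, the 6 members with the highest RNA-seq mean, the 4 called members with the largest difference per direction in each loading comparison, and the 3 with the smallest p in each other comparison; of the partner lists, the 3 highest are named. Adam7, Adam28, Adam34l, Adam37 and Adam38 were not analysed here. Alternatives were another pseudocount, other filters, centring, quantile normalization, the threshold of the study's methods (unadjusted p under 0.05 and an absolute log2 difference over 1.5), a joint fit, a replicate block and leaving out each library. The study's supplement gives that threshold as a change over 1.5-fold, which was added as an alternative after seeing the data.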

Additional observations from a re-analysis of the deposited data

How the results depend on the processing

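In the genotype and TE comparisons 0 members passed under every alternative with an adjusted p. By the threshold in the study's methods, an unadjusted p under 0.05 with a log2 difference over 1.5, 0 passed in either genotype comparison, 1 in TE and 1 in loading of each genotype, each time Adam15. That threshold took 2203 of 19798 genes in Igf2bp3+/- loading and 806 of 19858 in Igf2bp3-/- loading. The supplement words it as a change over 1.5-fold, an alternative chosen after seeing the data, by which 1 passed in RNA-seq (Adam15, lower), 1 in RNC-seq (Adam15, higher), 2 in TE (Adam11 and Adam15, higher), 8 in Igf2bp3+/- loading and 7 in Igf2bp3-/- loading. It took 1109 of 20352 genes in RNA-seq, 1102 of 19051 in RNC-seq and 1207 of 18414 in TE. In loading it took 8 of 27 members beside 8736 of 19798 genes in Igf2bp3+/-. For Igf2bp3-/- these were 7 of 28 members beside 6040 of 19858 genes. In Igf2bp3-/- loading the count of 6 became 10 with quantile normalization, where 4199 of 19858 genes passed. The median of the members in Igf2bp3-/- loading became -0.32 with a pseudocount of 1. Leaving out a library gave 7 to 13 members in Igf2bp3+/- loading and 1 to 15 in Igf2bp3-/- loading: 1 without RNA-seq replicate 1 or 2, 2 without RNA-seq replicate 3, 3 without RNC-seq replicate 1 or 3, and 15 without RNC-seq replicate 2. The counts over all genes moved as well. They ran from 6593 of 19709 to 8858 of 20015 genes in Igf2bp3+/- loading. In Igf2bp3-/- loading they ran from 1134 of 19730 without RNA-seq replicate 1 to 6523 of 19942 without RNC-seq replicate 2. Adam11, Adam15, Adam17, Adam18, Adam1b, Adam22 and Adam26b passed in Igf2bp3+/- whichever single library was left out, and Adam18 did in Igf2bp3-/-. With quantile normalization the RNA-seq genotype difference turned to -0.0612 for Adam2 and -0.0549 for Adam3, and the Igf2bp3+/- loading difference of Adam2 turned to -0.31. Without single libraries the loading difference of Adam2 ran from -0.0242, without Igf2bp3+/- RNC-seq replicate 3, through -0.0241 without replicate 1 to 0.0947, without replicate 2. The cause of these turns was not tested. Over all genes the RNA-seq genotype count of 52 ran from 4 with a replicate block to 158 by the log2 threshold, that in RNC-seq of 22 from 0 without Igf2bp3-/- RNC-seq replicate 1 to 188, and that in TE of 1 from 0 to 196, apart from the 1.5-fold counts above.

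RNA-seq and RNC-seq libraries of 1 genotype that share a number had deviations that correlated at -0.104 to 0.205 across 12265 genes, so the numbers do not show a pairing. With the replicate number as a block, 10 members passed in Igf2bp3+/- loading, 2 (Adam15 and Adam18) in Igf2bp3-/- loading, and 0 in the genotype and TE comparisons. In loading that is 10 of 27 members beside 8362 of 19798 genes in Igf2bp3+/-. For Igf2bp3-/- it is 2 of 28 members beside 4277 of 19858 genes. The unknown depth limits members below 0.2 FPKM, whose values rest on few fragments, and also the RNC-seq values of Adam9, Adam15 and Adam22.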
